A study of Mus musculus with 11 samples.

Results

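The SR and hnRNP splicing factors are the nuclear RNA-binding proteins that choose which exons a messenger RNA keeps. The members were the protein-coding genes whose symbol is Srsf followed by a digit or begins with Hnrnp, together with *Tra2a* and *Tra2b*. There were 33 of them (11 Srsf, 2 Tra2 and 20 Hnrnp genes) among 35017 gene symbols with a transcript in the data. They were measured by bulk RNA sequencing in KP1, a cell line from a mouse small cell lung cancer (SCLC) that lacks Rb and p53 and is neuroendocrine. The groups were 2 libraries of untreated control cells (replicates 2 and 3) and 3 libraries of cells irradiated with 5 Gy (replicates 1, 2 and 3), all grown in culture and collected at 24 h. The protocol text attached to every bulk sample, controls included, speaks of the 5 Gy dose, and the control group rests on the treatment label, untreated. Total RNA was isolated with a column kit and sequenced on an Illumina platform by Novogene. The study asked whether blockade of CD47, a signal that keeps macrophages from engulfing cells, adds to radiotherapy against SCLC, and how irradiated tumors act on macrophages. The cultured line gives the response of the cancer cells without other cells. Single-cell samples of tumor leukocytes in the series were not analysed here. The labels do not say that replicates were separate cultures grown and treated apart, so p-values measure only the spread between these libraries, which may be technical.

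SR proteins carry RNA recognition motifs and a tail rich in arginine and serine, bind exonic enhancers and recruit the U1 and U2 particles to nearby splice sites. The hnRNP proteins coat nascent RNA, and many of them silence exons or act on RNA export, stability and translation. Many genes of both families limit their own output. Their protein promotes the inclusion of a poison exon with a premature stop codon, or the retention of an intron, and the resulting RNA is degraded by nonsense-mediated decay (NMD) or kept in the nucleus.

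Salmon, run by the authors, assigned 31036317 and 26432466 reads in control and 24469945, 21185956 and 27243557 reads in irradiated cells to transcripts. In this and later sentences, values run over control replicates 2 and 3 and then irradiated replicates 1, 2 and 3. Levels are in TPM, which is scaled for transcript length within each library, or in CPM, which is scaled for depth with edgeR's normalization and not for length. The libraries also differed in ways that are not a matter of single genes. On the principal component that held 61.9% of the variance of log2 CPM, control replicate 2 lay at −86.8 and control replicate 3 at −31.4, and the irradiated replicates lay at 49.9, 47.8 and 20.4. Weighted by reads, the transcripts had a mean length of 5463 and 4729 bases in control and 3715, 3625 and 3998 bases in irradiated cells. Over all genes, the share of TPM on isoforms annotated as retained introns was 4.99% and 5.42% in control and 2.31%, 3.09% and 2.96% in irradiated cells. Mitochondrial transcripts took 1.07% and 2.03% of reads in control and 0.823%, 1.5% and 1.89% of reads in irradiated cells, so that the groups overlapped. In contrast, the groups did not overlap in transcript length or in the retained-intron share, and the part of either in the results below was not tested beyond the alternatives given.

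The neuroendocrine label fitted the markers. The neuroendocrine SCLC marker *Insm1* stood at 263 and 369 TPM in control and 502, 313 and 310.3 TPM in irradiated cells. *Chga* stood at 437 and 396 TPM in control and 278, 391 and 475 TPM in irradiated cells. Of the 9 markers on the list, 3 were higher and 1 was lower in irradiated cells by edgeR at an adjusted p under 0.05, among them *Uchl1* (log2 fold change 1.14), *Syp* (0.64) and *Ncam1* (−1.20). Over all genes tested, 12.7% were higher and 13% lower. By edgeR with the transcript length offset described below, 0 of the markers were called in either direction. The 6 macrophage and leukocyte markers summed to 4.55 and 7.03 TPM in control and 1.62, 1.18 and 1.45 TPM in irradiated cells, with *Cd68* the most abundant, and *Adgre1*, *Csf1r* and *Lyz2* had at most 2 reads in any library. Of the 6 fibroblast markers, which summed to 67.4 and 57 TPM in control and 36.8, 51.8 and 47 TPM in irradiated cells, *Pdgfra* was the most abundant, and *Col3a1* had 0 reads in every library. The RNAs listed as signs of nuclear RNA (*Malat1*, *Neat1*, *Meg3* and *Kcnq1ot1*) have no transcript in the data.

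At the level of whole genes, few members differed between irradiated and control cells. By the quasi-likelihood test of edgeR, adjusted by Benjamini-Hochberg, 1 of the 33 members was higher and 2 were lower at an adjusted p under 0.05, while 12.7% of the 14091 genes tested were higher and 13% were lower. All 33 members passed the filter on low counts. Their median log2 fold change was 0.04, beside 0.02 over all genes tested, and the members ran from −0.87 to 0.79, with 17 above 0 and 16 below. At an unadjusted p under 0.05 from edgeR, 4 members were higher and 3 lower, beside 20.9% and 20.1% of all genes. With the fold thresholds of the study added (log2 fold change above 1.5 or below −1.5), edgeR called 0 members and DESeq2 also called 0, while 1.65% of all genes were higher and 1.9% lower by edgeR. DESeq2 called 4 members higher and 3 lower at an adjusted p under 0.05, against 16.1% and 14.7% of the genes to which it gave an adjusted p. The counts changed with single libraries, for all genes as for the members. Without control replicate 2, edgeR called 0 members, 0.664% of all genes higher and 1.23% lower. At an unadjusted p under 0.05 from edgeR, 0 members were then higher and 4 lower, beside 14.1% and 12.1% of genes. Without control replicate 3 it called 4 members higher and 2 lower, beside 15.3% and 13.5% of genes, and *Srsf9* passed the fold threshold of the study. Without irradiated replicate 1, 2 or 3 it called 1 member in each case, which was *Hnrnpu*. The shares of all genes were then 6.04%, 4.93% and 11.3% higher and 6.57%, 6.01% and 10.6% lower. With an offset per library fitted as a spline on transcript length, 0 members were higher and 1 was lower by edgeR, against 1.99% and 2.57% of all genes, and the members' median moved to −0.11. At an unadjusted p under 0.05 from edgeR with this offset, 0 members were higher and 11 lower, beside 12.8% and 13.9% of genes. The medians by family were 0.28 for the Srsf genes and −0.05 for the Hnrnp genes, and with the offset −0.07 and −0.25. With a block that pairs libraries of equal replicate number, edgeR called 0 members, beside 4.15% of genes higher and 3.41% lower. At an unadjusted p under 0.05 from edgeR with the block, 1 member was higher and 1 lower, beside 13.6% and 11.8% of genes. Block and offset together again gave 0 called members by edgeR, beside 0.22% and 0.383% of genes, and at an unadjusted p under 0.05, 0 higher and 3 lower, beside 8.01% and 8.24%.

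**Figure D1:**
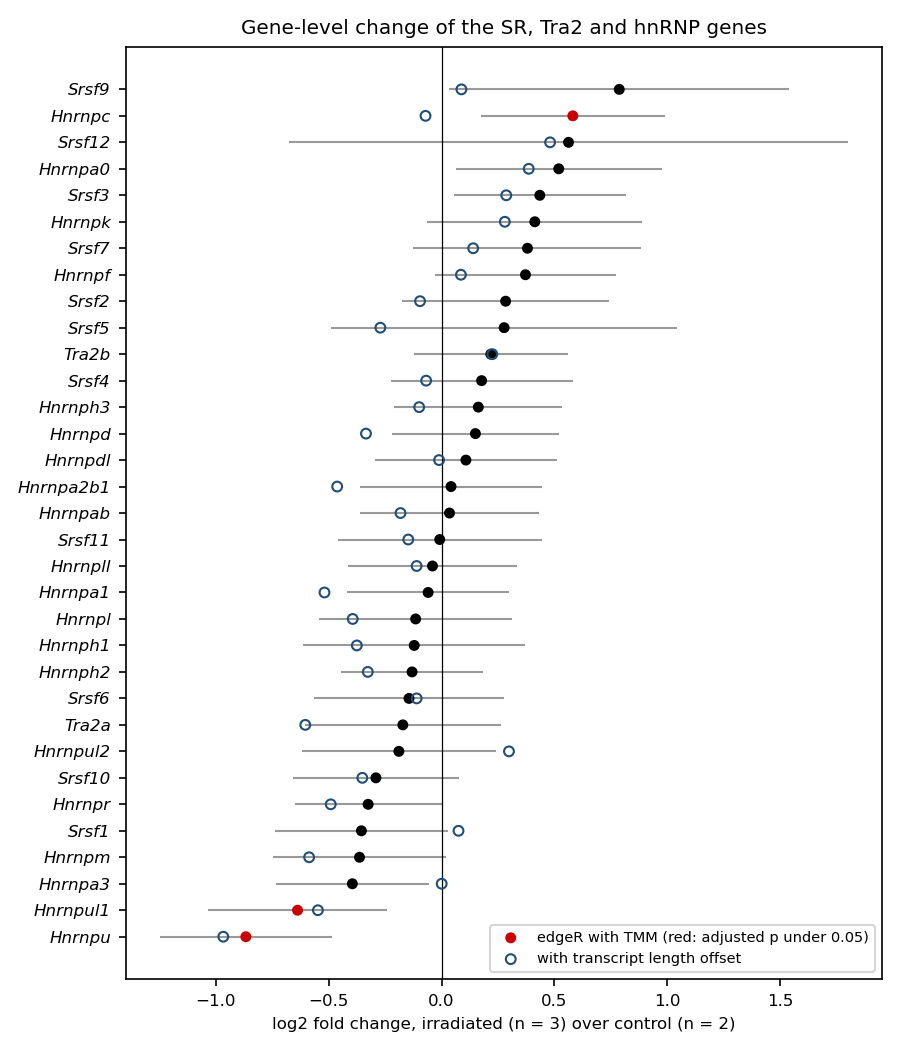
Log2 fold change of irradiated over control cells for each of the 33 members, with the 95% confidence interval of edgeR as a line, 3 irradiated and 2 control libraries. Red points have an adjusted p under 0.05, and open circles give the value with the transcript length offset; *Hnrnpu* lies lowest at −0.87, and *Hnrnpc* moves from 0.58 to −0.07 with the offset.

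*Hnrnpu*, on the minus strand at chr1:178321108-178337797 of GRCm38 (mm10), encodes a nuclear scaffold protein that binds RNA and DNA and holds chromatin open. It had 1157 and 1315 TPM in control and 467, 465 and 623 TPM in irradiated cells. Both control libraries lay far above all 3 irradiated libraries. In CPM the control mean was 1933 ± 137 CPM (SD, n = 2) and the irradiated mean 1059.5 ± 124 CPM (SD, n = 3). *Hnrnpu* fell by 0.87 on the log2 scale (standard error 0.17, adjusted p = 0.0115 from the quasi-likelihood test of edgeR, adjusted by Benjamini-Hochberg), lower in 3 of 3 irradiated libraries. With the transcript length offset the log2 fold change was −0.97 (adjusted p = 0.0275 from edgeR). Without control replicate 2 it was −0.92 and no longer past the threshold (adjusted p = 0.0528 from edgeR). The call was also lost with the replicate block, at −0.81 (adjusted p = 0.148 from edgeR), and with block and offset together, at −0.91 (adjusted p = 0.0978 from edgeR). In bulk libraries, fewer cells that express a gene and less of its RNA per cell cannot be told apart.

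*Hnrnpul1*, at chr7:25721165-25754757, encodes a relative of hnRNP U that is known to gather at DNA breaks. It had 381 and 327 TPM in control and 199, 151 and 213 TPM in irradiated cells. The groups did not overlap. *Hnrnpul1* fell by 0.64 (standard error 0.17, adjusted p = 0.0311 from edgeR with Benjamini-Hochberg adjustment), lower in 3 of 3 irradiated libraries. The call was lost with the length offset, at −0.55 (adjusted p = 0.0731 from edgeR). It was also lost without control replicate 2 (−0.48) and without irradiated replicate 1 (−0.68), 2 (−0.54) or 3 (−0.69), with adjusted p values of 0.0531 to 0.175 from edgeR. With the replicate block it was at −0.69 and not called (adjusted p = 0.207 from edgeR). The other relative, *Hnrnpul2*, had 90.1 and 118 TPM in control and 88.3, 62.1 and 73.3 TPM in irradiated cells. Its irradiated libraries lay below both controls in TPM, while the groups overlapped in CPM, and the log2 fold change was −0.19, or 0.30 with the length offset. Without control replicate 2 the log2 fold change was −0.33, and without control replicate 3 it was 0.01.

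*Hnrnpc*, at chr14:52073377-52104028, binds runs of uridine and keeps the spliceosome away from cryptic exons. It had 299 and 379 CPM in control and 448, 542 and 532 CPM in irradiated cells. All 3 irradiated libraries were above both controls. *Hnrnpc* rose by 0.58 (standard error 0.18, adjusted p = 0.0448 from edgeR with Benjamini-Hochberg adjustment), but with the transcript length offset it was at −0.07 (adjusted p = 0.798 from edgeR), on the other side of 0. In TPM, which is also scaled for length, the groups did not overlap. *Hnrnpc* had 377 and 476 TPM in control and 484, 538 and 573 TPM in irradiated cells. All of its TPM was on coding isoforms in every library. In the fit on coding isoforms alone, where its own reads were the same, it was at 0.52 and not called (adjusted p = 0.0593 from edgeR). Its most-read transcript has 1301 bases, against 2844 for *Hnrnpu* and 3784 for *Hnrnpul1*. The call was also lost without control replicate 2 (0.44) and without irradiated replicate 1 (0.66), 2 (0.53) or 3 (0.55), with adjusted p values of 0.0678 to 0.206 from edgeR. With the replicate block it was at 0.67 and not called (adjusted p = 0.203 from edgeR).

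The other hnRNP genes did not pass edgeR's test. DESeq2 called *Hnrnpa0* (adjusted p = 0.0329) and *Hnrnpa3* (adjusted p = 0.0247), and edgeR without the filter on low counts called *Hnrnpa0*. *Hnrnpa1*, whose protein opposes SRSF1 at many exons, had 1839 and 1672 TPM in control and 1329.8, 1315 and 1562 TPM in irradiated cells and a log2 fold change of −0.06, or −0.52 with the length offset. In TPM it was the most abundant member in 3 libraries, and *Hnrnpa2b1* was in control replicate 3 and irradiated replicate 2. In CPM *Hnrnpu* was the highest member in both controls. *Hnrnpa2b1* and *Hnrnpab* had log2 fold changes of 0.04 and 0.04, and of −0.46 and −0.18 with the offset. *Hnrnpa0* had 519 and 737 CPM in control and 925, 979.8 and 796 CPM in irradiated cells and a log2 fold change of 0.52 (adjusted p = 0.0855 from edgeR). Its groups did not overlap in CPM but did in TPM, with 394 and 577 TPM in control and 586, 589 and 528 TPM in irradiated cells. *Hnrnpk*, which binds runs of cytidine, and *Hnrnpf*, which binds runs of guanosine, had log2 fold changes of 0.41 and 0.37, and *Hnrnpf* was at 0.09 with the length offset. Without control replicate 3, *Hnrnpa0* and *Hnrnpk* were called, at 0.81 and 0.74. Without control replicate 2 they were at 0.31 and 0.18, uncalled. Below 0 stood *Hnrnpa3* at −0.40, *Hnrnpm* at −0.36 and *Hnrnpr* at −0.33, each with all 3 irradiated libraries below both controls in CPM. With the length offset these were at 0.00, −0.59 and −0.49. In TPM, which is also scaled for length, *Hnrnpa3* still had all 3 irradiated libraries below both controls. It had 973 and 1000 TPM in control and 631, 608 and 646 TPM in irradiated cells. The remaining hnRNP genes (*Hnrnpd*, *Hnrnpdl*, *Hnrnph1*, *Hnrnph2*, *Hnrnph3*, *Hnrnpl* and *Hnrnpll*) lay between −0.13 and 0.16. With 1 library left out these ran from −0.37 (*Hnrnph1*) to 0.32 (*Hnrnpd*), and with the length offset from −0.39 to −0.01. *Hnrnpa1*, *Hnrnpa2b1* and *Hnrnpab* ran from −0.13 (*Hnrnpab*) to 0.26 (*Hnrnpab*) with 1 library left out. Summed over the 20 Hnrnp genes, the level was 12200.0 and 13661 TPM in control and 9805, 10177 and 10451 TPM in irradiated cells. In TPM the sum was lower in each irradiated library than in both controls. In CPM it was 12385 and 13675 CPM in control and 11819.8, 12751 and 12036 CPM in irradiated cells, and the groups overlapped.

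*Hnrnpa1* and *Hnrnpa3* are less certain than the other members, since near-identical copies of them were given reads. With the copies' reads added, *Hnrnpa1* was at −0.14 (from −0.06) and *Hnrnpa3* at −0.28 (from −0.40). *Gm10052*, identical to *Hnrnpa1* over 960 bases, was given 2757 and 1569 reads in the controls and 0 in each irradiated library, where a count of 0 allows up to 3 reads. Such a limit covers counting error only. *Gm5641*, identical to *Hnrnpa3* over 1488 bases, was given 7268 and 8580 reads in control and 7794, 7023 and 8268 reads in irradiated cells. *Gm11847* and *Gm6793*, also near-identical to *Hnrnpa3*, had at most 140 and 45 reads. *Gm6793* is annotated as protein-coding and the others as processed pseudogenes. Together the copies took 19.1% to 27.7% of the reads of *Hnrnpa3* and its copies, more in each irradiated library than in both controls.

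None of the 11 Srsf genes passed edgeR's test. DESeq2 called *Srsf3* (adjusted p = 0.0363) and *Srsf9* (adjusted p = 0.0431), and edgeR without the filter on low counts called *Srsf9*. *Srsf9*, which has the shortest main transcript among them, had 26.4 and 61.6 CPM in control and 73.6, 91.3 and 62.8 CPM in irradiated cells. Control replicate 2 lay apart from the other 4 libraries. The groups did not overlap in CPM, but they did in TPM, with 55.7 and 132 TPM in control and 128, 153 and 114 TPM in irradiated cells. Its log2 fold change of 0.79 (adjusted p = 0.109 from edgeR) moved to 0.09 with the length offset and to 1.54 without control replicate 3, where it was called. Without control replicate 2 it was 0.32 (adjusted p = 0.415 from edgeR). *Srsf3*, the smallest SR protein and a factor in RNA export, had 376 and 412 CPM in control and 517, 604 and 478 CPM in irradiated cells and a log2 fold change of 0.44 (adjusted p = 0.0854 from edgeR), or 0.29 with the length offset. The groups did not overlap. *Srsf1*, the founding member of the family, had 690.4 and 824 CPM in control and 525, 629 and 622 CPM in irradiated cells and a log2 fold change of −0.36, with all 3 irradiated libraries below both controls. With the length offset, *Srsf1* was at 0.08, and without control replicate 3 at −0.20. The offset took the length of its most-read transcript, 5362 bases. In TPM, which is also scaled for length, the groups of *Srsf1* did not overlap. It had 703 and 710 TPM in control and 406, 438 and 473 TPM in irradiated cells. *Srsf2*, *Srsf4*, *Srsf5*, *Srsf6*, *Srsf7*, *Srsf10* and *Srsf11* had log2 fold changes from −0.29 to 0.38. With 1 library left out they ran from −0.38 (*Srsf10*) to 0.90 (*Srsf5*), and with the length offset from −0.35 to 0.14. *Srsf5* was at 0.28, and at −0.13 and 0.90 without control replicate 2 and 3. *Srsf2* (0.28) was then at 0.06 and 0.60, and *Srsf7* at 0.19 and 0.65. *Srsf12* was at the low end of abundance, with 1.15 and 0.689 TPM in control and 1.96, 1.42 and 0.719 TPM in irradiated cells. Its groups overlapped in TPM but not in CPM, and its log2 fold change was 0.56 (adjusted p = 0.466 from edgeR). Summed over the 11 genes, the level was 2511 and 3175 TPM in control and 2310.2, 2617 and 2319 TPM in irradiated cells, so that the groups overlapped. *Tra2a* and *Tra2b*, SR-like activators that bind AGAA in exons, had log2 fold changes of −0.17 and 0.22 and adjusted p values of 0.529 and 0.301 from edgeR. The offset put them at −0.60 and 0.23. With 1 library left out, *Tra2a* ran from −0.34 to −0.04 and *Tra2b* from 0.16 to 0.29.

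The members carry many isoforms that do not make the full protein. Of their 281 transcripts in the data, 134 are annotated as coding, 74 as retained introns, 38 as NMD targets and 35 as processed transcripts. Among the 33 members, 22 have a retained-intron isoform and 20 have an NMD isoform. That is 66.7% and 60.6% of members, beside 40.3% and 20% of all 21803 protein-coding genes in the data. Both kinds occur in 54.5% of members and in 14.4% of protein-coding genes. Of the TPM added over the members, retained-intron isoforms held 5.33% and 6.31% in control and 1.75%, 3.19% and 2.85% in irradiated cells. Coding isoforms held 83% and 80.6% in control and 89.6%, 88.2% and 88.3% in irradiated cells. The NMD class held 8.91% and 9.23% in control and 7.06%, 6.45% and 6.92% in irradiated cells, with *Hnrnpu* the largest contributor in each library. In all 3 classes the groups did not overlap. Without *Hnrnpu* the NMD share was 3.05% and 4.03% in control and 4.06%, 3.84% and 3.18% in irradiated cells, and the groups overlapped, while the other classes stayed apart. Of all TPM, the members together took 1.51% and 1.73% in control and 1.24%, 1.32% and 1.31% in irradiated cells. Of all reads they took 1.41% and 1.75% in control and 1.54%, 1.72% and 1.54% in irradiated cells, and there the groups overlapped. Of 20 processed transcripts of members with a mean of at least 10 reads, 11 lay below both controls in all irradiated libraries in TPM and 1 above. Among all 3023 such isoforms these shares were 40.1% and 7.34%.

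Retained-intron isoforms were set against the coding isoforms of the same gene. Of the 22 members with such isoforms, 20 had a mean of at least 10 reads in both classes and were tested. For each, the log2 ratio of retained-intron to coding reads was compared between groups. The change was below 0 in all 20 members, from −2.72 to −0.23, with a median of −1.60. The sign changed for *Hnrnpa3* without control replicate 3 (0.55), *Hnrnpul1* without irradiated replicate 1 (0.25) and *Srsf1* without control replicate 2 (0.05). The replicate block gives irradiated replicate 1 no weight, so the ratio changes with it equal those without that library. *Hnrnpul1* was thus at the same 0.25 with the block. With block and length trend removal 1 member was above 0 (0.25). Genes in general shared the direction below 0, with a median of −1.35 over the 4493 genes tested, and the members' values are read against that shift. By limma with Benjamini-Hochberg adjustment, 0 members were called in either direction, and so were 0% of all genes. At an unadjusted p under 0.05 from limma, 9 of the 20 members were lower, beside 27.9% of all genes. That count was 3 without control replicate 2, 4 without control replicate 3 and 4 with the replicate block, beside 13.1%, 16.9% and 16.3% of all genes. With edgeR's diffSpliceDGE, which models the reads of both classes as counts, 7 of the 20 members were lower at an adjusted p under 0.05, beside 8.3% of all genes. The diffSpliceDGE test was not repeated with a library left out. On simulated data it made more false calls than its threshold allows, so its calls here and below carry that limit. In 15 of the 20 members all 3 irradiated libraries lay below both controls, as did 53.9% of all genes. With a trend on isoform length removed, the members' median was −1.52, and limma again called 0 members. Irradiated replicate 1 had the lowest median share among the members, at 7.49% and 10.2% in control and 1.2%, 3.32% and 3.83% in irradiated cells. Over all genes tested the medians were 9.88% and 11.5% in control and 2.96%, 5.76% and 5.43% in irradiated cells.

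**Figure D2:**
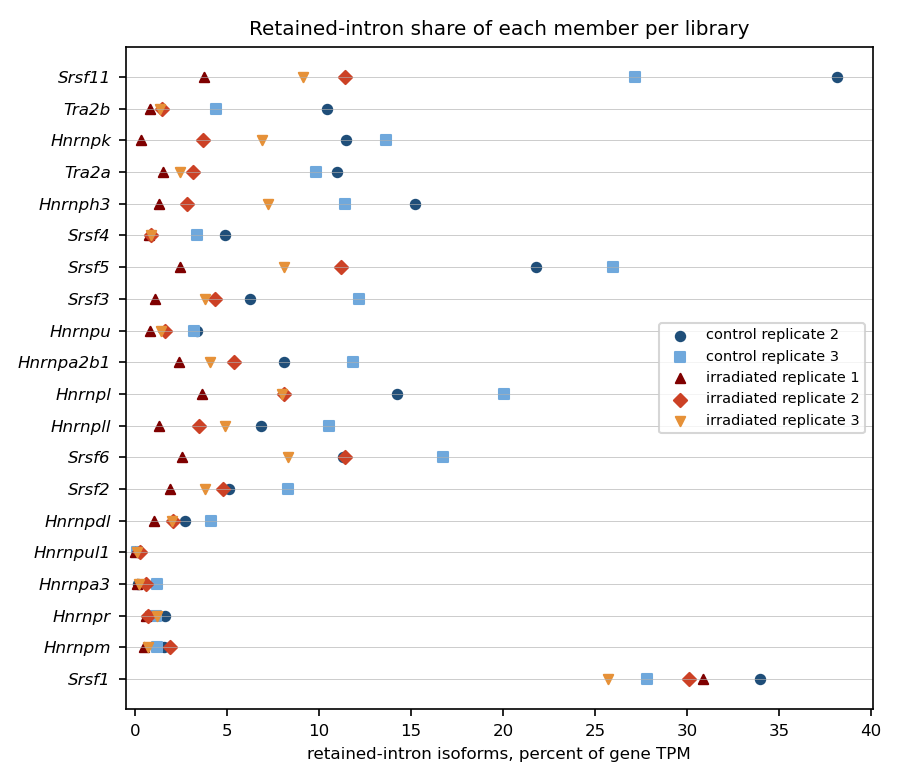
Share of each tested member's TPM on retained-intron isoforms, in percent, with a point for each of the 5 libraries. Members are ordered by the change of the log2 ratio to coding reads, from *Srsf11* at the top (−2.72) to *Srsf1* at the bottom (−0.23), whose libraries overlap between 25.7% and 34%.

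*Srsf11*, an SR-related protein found with U2AF at the acceptor site, had the lowest value. Of its TPM, retained-intron isoforms held 38.2% and 27.2% in control and 3.75%, 11.4% and 9.13% in irradiated cells. The share in each irradiated library was under the lower control. Its log2 ratio change was −2.72 (95% confidence interval −4.47 to −0.96), with an adjusted p of 0.129 from limma and 0.0302 from diffSpliceDGE.

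*Tra2a* and *Tra2b* were alike in this class. The retained-intron share of *Tra2a* was 11% and 9.87% in control and 1.56%, 3.16% and 2.45% in irradiated cells, and its log2 ratio change was −2.48 (95% confidence interval −3.73 to −1.24). For *Tra2b* the share was 10.5% and 4.43% in control and 0.833%, 1.49% and 1.38% in irradiated cells, and the log2 ratio change was −2.56 (95% confidence interval −4.20 to −0.91). The groups did not overlap in either gene, and the adjusted p was 0.0169 and 0.0164 from diffSpliceDGE, against 0.128 and 0.129 from limma. The main contributor for *Tra2a*, Tra2a-203, had 854 and 794 reads in control and 38, 154 and 143 reads in irradiated cells. It carries 3595 bases from within intron 1 (chr6:49260243-49263837), not a whole intron.

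*Srsf4* and *Srsf3* were also lower by diffSpliceDGE, but were not called by limma (adjusted p = 0.128 and 0.161 from limma). The share of *Srsf4* was 4.87% and 3.39% in control and 0.79%, 0.907% and 0.892% in irradiated cells, and its log2 ratio change was −2.39 (95% confidence interval −3.74 to −1.04), with an adjusted p of 0.0244 from diffSpliceDGE. For *Srsf3* the share was 6.25% and 12.2% in control and 1.09%, 4.37% and 3.83% in irradiated cells and the log2 ratio change −1.92 (95% confidence interval −3.72 to −0.13), with an adjusted p of 0.0432 from diffSpliceDGE. The groups did not overlap in either gene, and irradiated replicate 1 had the lowest share. With the replicate block and the length trend removed, *Srsf3* was at −1.10. *Srsf5* had a larger share, 21.8% and 26% in control and 2.46%, 11.2% and 8.11% in irradiated cells, and a log2 ratio change of −2.26 (95% confidence interval −4.12 to −0.41), with an adjusted p of 0.09 from diffSpliceDGE. With block and trend removal it was at −1.19.

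Among hnRNP genes, *Hnrnpa2b1* and *Hnrnpl*, the latter a binder of CA repeats, were lower by diffSpliceDGE. By limma neither was called (adjusted p = 0.157 and 0.146 from limma). Of the TPM of *Hnrnpa2b1*, these isoforms held 8.13% and 11.8% in control and 2.41%, 5.41% and 4.1% in irradiated cells (log2 ratio change −1.63, adjusted p = 0.0244 from diffSpliceDGE). Of the TPM of *Hnrnpl*, they held 14.3% and 20.1% in control and 3.67%, 8.11% and 7.98% in irradiated cells (log2 ratio change −1.58, adjusted p = 0.0302 from diffSpliceDGE). *Hnrnph3*, *Hnrnpk*, *Hnrnpu* and *Hnrnpll* had log2 ratio changes of −2.40, −2.54, −1.65 and −1.57, with groups that did not overlap and no call by either tool. Without irradiated replicate 1 the change of *Hnrnpk* was −1.35, and with the block and the trend removed that of *Hnrnpll* was −0.89. *Hnrnpdl*, *Hnrnpr* and *Srsf2*, with −1.01, −0.63 and −1.02, were likewise apart in this ratio and uncalled. The *Hnrnpr* share of TPM overlapped, at 1.66% and 1.13% in control and 0.633%, 0.701% and 1.21% in irradiated cells. The change of *Srsf2* was −0.66 without control replicate 3 and −0.62 without irradiated replicate 1. That of *Hnrnpr* was −0.31 without control replicate 2 and −0.96 without control replicate 3. The groups overlapped in *Srsf6* (−1.09), *Hnrnpul1* (−0.84), *Hnrnpa3* (−0.74), *Hnrnpm* (−0.55) and *Srsf1*. Without irradiated replicate 1, *Srsf6* was at −0.45 and *Hnrnpm* at −0.18, and without irradiated replicate 2 *Hnrnpm* was at −1.07. Without control replicate 3 *Srsf6* was at −0.72. *Srsf1* had a large share in every library, 34% and 27.8% in control and 30.8%, 30.1% and 25.7% in irradiated cells. Its log2 ratio change was −0.23 (95% confidence interval −1.38 to 0.92). Of its isoforms in this class, Srsf1-206 carries part of intron 2, and Srsf1-203 holds no whole or partial intron outside coding exons. The share is therefore not one of whole retained introns. *Hnrnpc* and *Hnrnpd*, the members below the read minimum, had at most 2 reads on retained-intron isoforms in any library.

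In *Srsf2*, *Srsf3*, *Srsf5* and *Srsf6*, the retained-intron isoform with the most reads contains whole introns of the coding isoform. So it does in *Hnrnpa3*, *Hnrnpdl*, *Hnrnph3* and *Hnrnpr*. In *Srsf1*, *Srsf4*, *Srsf11*, *Hnrnpl*, *Hnrnpll*, *Hnrnpu*, *Tra2a* and *Tra2b* the most-read one holds only parts of introns. In *Hnrnpa2b1* and *Hnrnpk* it holds no whole or partial intron outside coding exons. The isoforms named here and above were, like those below, chosen after their values were seen, since limma called no ratio. Srsf3-204 keeps introns 3 (chr17:29038625-29040774, 2150 bases) and 4 (chr17:29040814-29041206) on the plus strand and had 902 and 1341 reads in control and 155, 523 and 368 reads in irradiated cells. All irradiated libraries were lower than both controls. Srsf5-212 keeps intron 5 (chr12:80947866-80949094, plus strand) and had 886 and 1904 reads in control and 172, 958 and 496 reads in irradiated cells, with irradiated replicate 2 above control replicate 2. Its share of *Srsf5* was nonetheless lower in each irradiated library. Srsf6-204 keeps intron 2 (chr2:162932143-162933425, plus strand) with 642 and 1188 reads in control and 134, 647 and 445 reads in irradiated cells. Srsf2-203 keeps intron 2 (chr11:116850962-116852020, minus strand) with 419 and 915 reads in control and 202, 515 and 409 reads in irradiated cells. Irradiated replicate 2 was above control replicate 2 in the reads of these last isoforms too. Reads given to these isoforms can also come from their exons. The donor and acceptor sites printed here mark the ends of the introns. They are 5′ to 3′ on the strand of the gene and come from the GENCODE M21 transcripts on GRCm38. Capitals mark the GT at the start and the AG at the end of the intron.
Srsf2 intron 2 donor: atgGTaatg
Srsf2 intron 2 acceptor: tcttttcaaacctAGatg
Srsf3 intron 3 donor: cagGTactt
Srsf3 intron 3 acceptor: tgtttctgcttctAGatc
Srsf3 intron 4 donor: cagGTaaat
Srsf3 intron 4 acceptor: tgctgtttgttttAGgtc
Srsf5 intron 5 donor: cagGTttgt
Srsf5 intron 5 acceptor: ttgtcttgtgttaAGgat
Srsf6 intron 2 donor: gcaGTgagt
Srsf6 intron 2 acceptor: cttcatgtgataaAGgtg

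Changes of the NMD class had both signs among the members, and 0 were called. Of 20 members with an NMD isoform, 19 were tested (*Srsf5* had at most 1 read), and the median change of the log2 ratio of NMD to coding reads was 0.10, beside −0.14 over the 1939 genes tested. The members' median changed sign between settings. It was −0.18 (all genes −0.19) without control replicate 3 and −0.05 (all genes −0.17) without irradiated replicate 2. With a minimum of 50 reads it was −0.10 (all genes −0.13), and by diffSpliceDGE −0.07 (all genes −0.23). The replicate block with the length trend removed gave −0.04 (all genes −0.10). By limma with Benjamini-Hochberg adjustment, 0 members were called, as were 0% of all genes in the higher and 0.0516% in the lower direction. At an unadjusted p under 0.05 from limma the count of members was 0 as well, beside 3.25% of genes higher and 6.5% lower. By diffSpliceDGE 0 members were called, beside 0% of genes higher and 0.103% lower, and at an unadjusted p under 0.05 from that tool 2 members were higher and 1 was lower, beside 4.23% and 8.82% of genes. All 3 irradiated libraries were above both controls in 3 members (*Srsf3*, *Srsf6* and *Tra2b*) and below both in 4 (*Hnrnpa2b1*, *Hnrnpll*, *Srsf4* and *Tra2a*), while 11% and 20.7% of all genes were apart in these directions.

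*Tra2b* had the highest change among the 3 members that lay above both controls. The NMD share of its TPM was 5.16% and 15.2% in control and 28.1%, 27.2% and 20.9% in irradiated cells. Nearly all of it was Tra2b-206, with 12.2 and 36.3 TPM in control and 55.4, 56 and 40.1 TPM in irradiated cells. The log2 ratio change was 1.39 (95% confidence interval −0.05 to 2.83), and the adjusted p was 0.502 from limma. It was 0.66 without control replicate 2 and 2.12 without control replicate 3. The isoform includes an exon of 276 bases in intron 1 (chr16:22258986-22259261, minus strand) that holds a stop codon. Tra2b-203, annotated as a retained intron, holds the same stretch and had 19 and 8.18 TPM in control and 0.742, 1.74 and 2.35 TPM in irradiated cells. Over all 5 isoforms that contain this exon the share was 16.5% and 20.3% in control and 29.2%, 28.1% and 22.9% in irradiated cells, and the groups still did not overlap.

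In *Tra2a* the order was the other way round. Its NMD share was 11.4% and 11.3% in control and 7.34%, 8.41% and 6.8% in irradiated cells, all of it Tra2a-202, with a log2 ratio change of −0.80 (95% confidence interval −1.70 to 0.10) and an adjusted p of 0.526 from limma. The exon with the stop codon has 306 bases and also lies in intron 1 (chr6:49252803-49253108, minus strand). All 3 irradiated libraries had a lower share than both controls, and the difference between *Tra2a* and *Tra2b* was not tested.

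*Srsf3* lay above both controls, as *Tra2b* did. Its NMD share was 4.76% and 8.43% in control and 15.5%, 11.5% and 12% in irradiated cells, from Srsf3-201, which had 14.3 and 27.5 TPM in control and 52.4, 42.7 and 39.4 TPM in irradiated cells. The log2 ratio change was 0.98 (95% confidence interval −0.21 to 2.16), and the adjusted p was 0.527 from limma. Without control replicate 2 it was 0.50, and without control replicate 3 1.45. Its extra exon has 456 bases in intron 3 (chr17:29039454-29039909, plus strand), the intron that Srsf3-204 retains. Over the 4 isoforms that contain this exon the share was 9.91% and 16.2% in control and 16.2%, 14% and 13.8% in irradiated cells, and the groups overlapped. So the order of the groups in *Srsf3* depends on whether the retained-intron isoform is counted with the exon. The coding isoform Srsf3-202 had 251 and 251 TPM in control and 279, 309.6 and 271 TPM in irradiated cells.

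**Figure D3:**
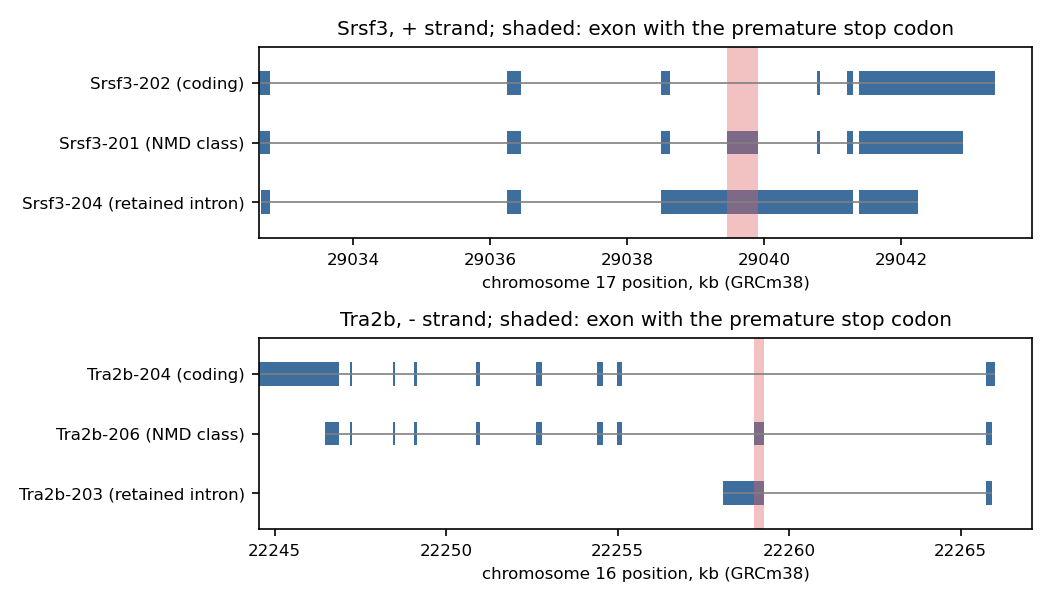
Exons (blue boxes) of a coding, an NMD and a retained-intron isoform of *Srsf3* on chromosome 17 and *Tra2b* on chromosome 16, positions in kb of GRCm38. The shaded exon with the premature stop codon, 456 bases in *Srsf3* and 276 bases in *Tra2b*, is absent from the coding isoform and lies within the retained-intron isoform.

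*Srsf6* had an NMD share of 21.5% and 23% in control and 36%, 29.8% and 26.3% in irradiated cells and a log2 ratio change of 0.50 (95% confidence interval −0.41 to 1.40). Its NMD isoform Srsf6-201 overlapped between the groups in TPM. *Srsf4* and *Hnrnpll* went the other way, with log2 ratio changes of −1.01 (95% confidence interval −2.40 to 0.37) and −0.96 (95% confidence interval −2.39 to 0.46). Without irradiated replicate 1 *Hnrnpll* was at −0.57. The NMD share of *Srsf4* was 14.8% and 13% in control and 7.06%, 7.76% and 7.68% in irradiated cells, and that of *Hnrnpll*, a relative of *Hnrnpl*, was 10.8% and 11.8% in control and 3.99%, 8.34% and 8.35% in irradiated cells. *Hnrnpa2b1* had a log2 ratio change of −2.19 that rested on control replicate 3, where Hnrnpa2b1-209 was given 2138 reads against 0 in control replicate 2. Without control replicate 3 the change was −1.04, and without control replicate 2 −3.33. In the other 12 tested members the groups overlapped. Among them, *Hnrnpu* has an NMD isoform, Hnrnpu-206, that held most of the gene, and the NMD share was 79.5% and 72.3% in control and 84%, 77.9% and 82% in irradiated cells. Hnrnpu-206 had 917 and 947 TPM in control and 390.2, 360.3 and 502 TPM in irradiated cells, while the coding isoform Hnrnpu-201 had 121 and 159.6 TPM in control and 59.7, 66.7 and 78.9 TPM in irradiated cells. Both isoforms were lower in every irradiated library. Coding isoforms alone gave *Hnrnpu* a log2 fold change of −0.80 (adjusted p = 0.0164 from edgeR).

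**Figure D4:**
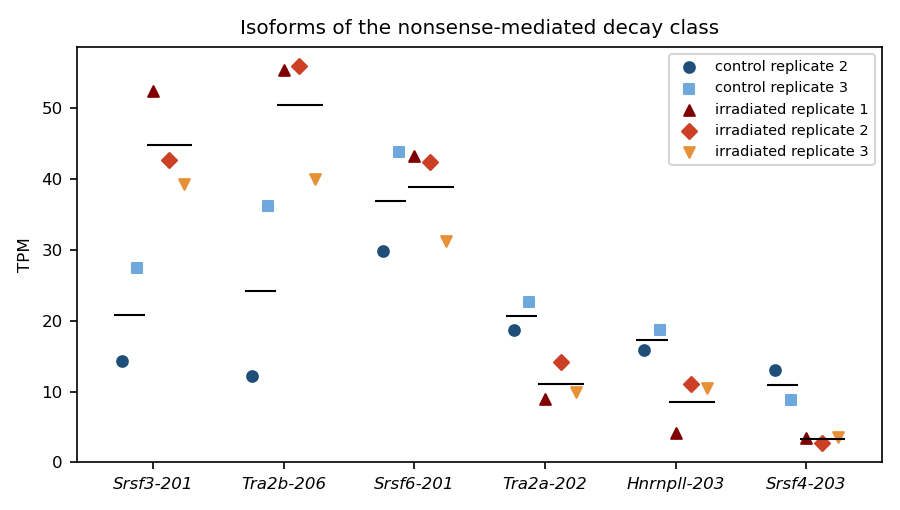
TPM of 6 isoforms annotated as targets of nonsense-mediated decay, with a point for each library and a line at each group mean (2 control, 3 irradiated libraries). Srsf3-201 and Tra2b-206 lie higher in all irradiated libraries than in both controls, Srsf6-201 overlaps, and Tra2a-202, Hnrnpll-203 and Srsf4-203 lie lower.

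The premature stops are shown for 5 genes whose NMD ratios did not overlap between the groups and whose NMD isoform has an extra exon with a stop codon. Each sequence runs from the start of the extra exon, 5′ to 3′ on the strand of the gene, to the stop codon in capitals, and comes from the GENCODE M21 transcripts. The exons of *Srsf4* (chr4:131884276-131884482, plus strand) and *Hnrnpll* (chr17:80044940-80045022, minus strand) lie in introns 1 and 6.
Srsf3-201: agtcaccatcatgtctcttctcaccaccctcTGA
Tra2b-206: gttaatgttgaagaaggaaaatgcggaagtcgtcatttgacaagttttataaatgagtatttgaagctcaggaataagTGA
Tra2a-202: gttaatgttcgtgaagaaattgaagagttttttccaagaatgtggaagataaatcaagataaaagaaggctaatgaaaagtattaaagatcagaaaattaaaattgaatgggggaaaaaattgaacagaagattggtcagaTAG
Srsf4-203: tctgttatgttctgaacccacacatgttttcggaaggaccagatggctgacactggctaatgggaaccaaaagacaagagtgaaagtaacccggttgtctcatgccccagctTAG
Hnrnpll-203: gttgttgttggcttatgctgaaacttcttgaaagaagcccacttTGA

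The extra exons of *Tra2a* and *Tra2b* share a feature that the choice of members did not use. Both begin with the same 9 bases, GTTAATGTT. The motif AGAA, which Tra2 proteins are known to bind, was counted on the strand of the transcript with overlaps allowed. It occurred 13 times in the 306 bases of *Tra2a* and 12 times in the 276 bases of *Tra2b*, or 4.25 and 4.35 per 100 bases. It occurred 0 times in the exons of *Srsf3*, *Srsf4* and *Srsf11* and 1 time each in those of *Hnrnpl* and *Hnrnpll*. The exon of *Srsf9* held it 2 times in 358 bases, or 0.559 per 100 bases. Among 216 internal exons of at least 50 bases in the members' most-read coding isoforms, 63.9% held the motif, with a median of 0.82 and a highest value of 5.76 per 100 bases. The match is a description of the sequence and not of binding.

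From each list of related factors, at most 2 called genes in each direction, those with the smallest p, were followed under the alternatives. With the 3 called neuroendocrine markers above they number 28. Without control replicate 2, 24 of the 28 were not called (called were *Mbnl3*, *Smg1*, *Srek1* and *Srrm2*), and with the transcript length offset 20 were not called. With the replicate block 20 were not called, and with block and offset together 27, the exception being *Mbnl3*. Without control replicate 3 the calls of *Prpf39* and *U2surp* were lost, and without irradiated replicate 3 that of *Pcbp4*. Without irradiated replicate 1 or 2, 15 and 14 were not called. Counts on the lists below stand beside 12.7% of all genes higher and 13% lower by edgeR, and beside 1.99% and 2.57% with the length offset. *Khsrp*, *Prpf8* and *Ncam1* were at −0.68, −0.63 and −0.67 without control replicate 2.

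The kinases and import factors that act on SR proteins were lower or uncalled. Of 12 tested, 0 rose and 5 fell by edgeR, while 13% of all genes fell, with a median log2 fold change of −0.37. The offset left 1 lower, beside 2.57% of genes. *Srpk1*, which phosphorylates the arginine-serine tail, had 324 and 232 CPM in control and 141, 131 and 169 CPM in irradiated cells and fell by 0.92 (adjusted p = 0.0138 from edgeR). With the length offset *Srpk1* was at −0.62 and not called (adjusted p = 0.0594 from edgeR). *Tnpo1*, the importer of hnRNP A1, fell by 0.72 (adjusted p = 0.0156 from edgeR) but was at 0.12 with the transcript length offset.

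SR-related proteins share the arginine-serine tail without being SR proteins. Of 27 tested, 16 fell and 1 rose by edgeR, while 13% of all genes fell and 12.7% rose, with a median log2 fold change of −0.55. The offset left 7 lower and 0 higher, beside 2.57% and 1.99% of genes, and the median was −0.34. *Srrm2*, a large scaffold of nuclear speckles, had 1298 and 1018 CPM in control and 353, 313 and 416 CPM in irradiated cells and fell by 1.68 (adjusted p = 0.00811 from edgeR), and was at −0.82 with the length offset. *Srek1* fell by 0.99 and was at −0.86 with the offset. *Rnps1*, a splicing activator of the exon junction complex, rose by 0.70 and was at 0.33 with the offset.

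Other RNA-binding proteins that resemble hnRNPs were mostly uncalled. Of 31 hnRNP-like proteins, 3 rose, 2 fell and 26 were not called by edgeR, beside the 12.7% and 13% of all genes, with a median of −0.04. The offset gave 0 higher and 3 lower, beside 1.99% and 2.57% of genes, and a median of −0.29. *Raly*, a relative of *Hnrnpc*, and *Pcbp4* each rose by 0.61, and were at 0.16 and 0.28 with the length offset. *Sfpq*, a paraspeckle protein, and *Khsrp*, a decay factor for AU-rich RNA, fell by 0.77 and 1.07, and with the offset were at −0.75 and −0.93. Of 30 other splicing regulators tested from a list of 32, 0 rose and 10 fell, while 12.7% of all genes rose and 13% fell, with a median of −0.35. With the offset 0 rose and 3 fell, and the median was −0.28. The muscleblind genes *Mbnl3* and *Mbnl1* fell by 2.08 and 1.21, and were at −1.78 and −0.72 with the offset.

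The Sm and LSm proteins form the rings around the spliceosomal RNAs. All 15 Sm and LSm genes were tested, of which 10 rose and 0 fell, while 12.7% of all genes rose and 13% fell, with a median log2 fold change of 1.14. With the length offset the median was 0.22 and 1 rose, beside 1.99% of genes. *Snrpd2*, a subunit of the Sm ring, had 23.7 and 34.3 CPM in control and 92, 131 and 70.3 CPM in irradiated cells and rose by 1.75 (adjusted p = 0.00899 from edgeR), and was at 1.14 with the offset. *Lsm4* rose by 1.17 and was at 0.34 with the offset. Of 24 genes of the U1 and U2 particles and U2AF, 5 rose and 2 fell, beside 12.7% and 13% of all genes, with a median of 0.36, or −0.05 with the offset. The offset left 0 higher and 2 lower, beside 1.99% and 2.57% of genes. *Sf3b6* and *U2af1l4* rose by 1.12 and 0.90, and *Prpf39* and *U2surp* fell by 0.71 and 0.54. With the length offset these 4 were at 0.38, 0.03, −0.56 and −0.59. Of 27 genes tested from the list of 28 for the U4/U6.U5 particle and the catalytic step, 4 rose and 2 fell, beside the same shares, with a median of 0.01, or −0.06 with the offset, where 0 were higher and 1 was lower. *Snrnp27* and *Txnl4a* rose by 0.76 and 0.75, while *Snrnp200* and *Prpf8*, the helicase and the scaffold of the U5 particle, fell by 1.19 and 1.01. With the offset these were at −0.13, 0.30, −0.53 and −0.26.

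Factors that degrade RNA with premature stops were also measured, since they act on the NMD isoforms above. Of 21 NMD and exon junction factors, 3 rose and 5 fell by edgeR, beside 12.7% and 13% of all genes, with a median log2 fold change of −0.34. The offset left 1 higher and 1 lower, beside 1.99% and 2.57% of genes, and the median was −0.27. *Smg1*, the kinase of Upf1, had 362 and 262 CPM in control and 121, 115 and 138 CPM in irradiated cells and fell by 1.32 (adjusted p = 0.00811 from edgeR), but its main transcript has 15557 bases and with the length offset it was at −0.10. *Rbm8a* and *Magoh*, the core pair of the exon junction complex, rose by 0.88 and 0.98 and were at 0.73 and 0.01 with the offset. The part of these factors in the isoform ratios was not tested.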

How the data were processed

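The deposited files hold, for 2 control and 3 irradiated bulk libraries of KP1 cells, estimated counts (expected number of reads per transcript) and TPM per transcript, which the authors made with Salmon 0.8.2 against mm10, per the submitters' processing notes, which also name DESeq2 1.22.2. The annotation release is not given in the sources used here. Of 113116 transcripts, 112762 (99.7%) were matched by identifier to GENCODE M21, whose isoform types and GRCm38 coordinates were used. Estimated counts and TPM were summed to gene symbols, and counts were rounded. Libraries held 21185956 to 31036317 reads, and a count of 0 allows up to 3 reads.

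Irradiated and control libraries were compared with edgeR 4.0.16 (R 4.3.3) by its quasi-likelihood test after filterByExpr and TMM normalization, with Benjamini-Hochberg adjustment over all 14091 genes tested. A gene was called at an adjusted p under 0.05. For each gene with both classes and a mean of at least 10 reads in each, limma 3.58.1 (with a trend) was run on the log2 ratio of retained-intron or NMD reads to coding reads, with a pseudocount of 0.5 reads and adjustment over all genes tested. Confidence intervals are at 95%. The error of Salmon in dividing reads between isoforms is not in these tests. Both procedures were tested on simulated data. There, diffSpliceDGE made more false calls than its threshold allows, and so did edgeR without the length offset where a length trend was simulated.

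Alternatives were DESeq2 1.42.0, RLE size factors, no filter on low counts, a per-library offset from a spline on transcript length, a block on replicate numbers, coding isoforms only, near-identical copies added (blastn 2.17.0, 95% identity over 80% of the shorter transcript), the fold thresholds of the study, and each library left out. For ratios they were TPM with a pseudocount of 0.05, a pseudocount of 5 reads, a minimum of 50 reads, a trend on isoform length removed, the block, diffSpliceDGE of edgeR, and each library left out.

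All members are named. From each list of related genes, at most 2 called genes in each direction with the smallest p were followed. Near-identical copies of members with a mean of at least 10 reads are named. The members and lists were chosen with earlier results of these data known. Isoforms were to be named where limma called a ratio. It called none in a member, so the isoforms described were chosen after their values were seen. Tables and figures were made with Python 3.11.15, pandas 2.3.3, numpy 2.4.6 and matplotlib 3.10.9.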

Additional observations from a re-analysis of the deposited data

How the results depend on the processing

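The count of 3 members called by edgeR (1 higher, 2 lower) was 7 with DESeq2 and 5 with no filter on low counts. Of those 5, 3 were higher and 2 lower, beside 2539 and 1989 of 20508 genes. The count was 1 with the transcript length offset and 0 with the fold thresholds of the study. It was 0 with the replicate block alone (at an unadjusted p under 0.05 from edgeR, 1 higher and 1 lower, beside 1921 and 1666 of 14091 genes) and 0 for block and length offset together (0 higher and 3 lower, beside 1129 and 1161 genes). Leaving out 1 library gave 0 to 6. The median log2 fold change of 0.04 was −0.11 with the length offset and −0.050 to 0.20 with a library left out. The count of 0 retained-intron ratios called by limma (9 lower at an unadjusted p under 0.05) was 7 with diffSpliceDGE, and it was 0 in the other alternatives run. The median of −1.60 (all genes −1.35) was −1.12 (all genes −1.01) with the block and the length trend removed. No NMD ratio of a member was called in any alternative run, and their median of 0.10 ran from −0.18 to 0.16. Over all genes, calls of NMD ratios were more frequent without control replicate 3, which leaves 1 control, than in the other alternatives. With the length offset, *Hnrnpc* reversed to −0.071, *Tnpo1* to 0.12 and *Snrnp27* to −0.13, and when the block was added *Tnpo1* was at 0.13, *Snrnp27* at −0.10 and *Magoh* at −0.068. The cause was not tested.

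Of 429 values of single members under the alternatives, 402 stayed on their side of the threshold, 18 lost and 9 gained a call, and 46 values in 18 uncalled genes changed sign. Of 364 values of the 28 other genes followed, 124 lost the call. Sign changes numbered 5 of 236 for retained-intron ratios and 25 of 226 for NMD ratios. The block joined libraries 2 and 3 of each group, and irradiated replicate 1 has no partner. The log2 CPM difference between replicates 2 and 3 was taken within each group. Across genes, the differences in control and in irradiated cells correlated at −0.201, and genes are not independent replicates. With 1 control left, the lone library is assumed to vary like the others. Isoforms with few reads were below what this depth can compare.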

Other observations

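Some members also have isoforms annotated as processed transcripts, which belong to neither class compared above. The *Hnrnph1* isoform Hnrnph1-204 had 37 and 65.1 TPM in control and 3.24, 17.5 and 12.8 TPM in irradiated cells. The *Hnrnpu* isoform Hnrnpu-203 had 52.4 and 109.6 TPM in control and 5.42, 12.8 and 12.9 TPM in irradiated cells. In both, each irradiated library was below both controls, and irradiated replicate 1 was the lowest. Others did not share this order. The *Srsf5* isoform Srsf5-206 had 5.06 and 4.9 TPM in control and 5.7, 8.9 and 5.3 TPM in irradiated cells, higher in each irradiated library than in both controls. The *Srsf10* isoform Srsf10-201 had 2.18 and 3.73 TPM in control and 2.67, 7.94 and 7.45 TPM in irradiated cells, and its groups overlapped. These isoforms were chosen after their values were seen, and no test was run on them.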
